A study of Mus musculus with 10 samples.

Results

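The genes described here are nuclear genes of 9 mitochondrial protein families, taken by the start of their symbols: Mrpl and Mrps (the subunits of the mitochondrial ribosome), Nduf (complex I), Sdh (complex II), Uqcr (complex III), Cox (complex IV), Atp5 (ATP synthase), Timm and Tomm (the translocases of the inner and outer membrane). Reads in this series were counted opposite to the transcribed strand of the annotated genes. Each counted gene ID was therefore assigned to the gene on the other strand with at least 90% of the exon bases that face it, and counts were summed per gene. Of 5176 opposite-strand genes with any count, 46 belong to these families. GENCODE M21 lists 231 genes with such symbols, 211 of them protein coding and 18 pseudogenes, and 55 have an assigned ID. Of the 46 counted genes, 44 are protein coding. The other two are Tomm6os, an antisense RNA gene, and Ndufb1-ps, annotated as a long non-coding RNA.

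RNA came from a piece of cortex of about 3 mm, from part of 1 hemisphere, of 10 mice on a C57BL/6 background. The 5 wild-type animals were 663, 604, 663, 442 and 576 days old. The 5 animals homozygous for a Stip1 allele without the TPR1 domain (labelled dTPR/dTPR and dTPR-/dTPR-, here dTPR1) were 630, 606, 604, 582 and 541 days old. Stip1 encodes STI1, a co-chaperone of HSP70 and HSP90, and the comparison asks which transcripts differ without its TPR1 domain. How the allele was made and the sex of the animals are not given in the sources used here. Whether same-numbered libraries share a litter or day is not given either, so p-values measure the spread between these 10 animals.

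Mitochondria make a few of their own respiratory chain proteins on their own ribosomes. All other subunits, the ribosomal proteins and the factors that assemble the complexes are encoded in the nucleus, made in the cytosol and imported through the Tomm and Timm translocases. HSP70 and HSP90 deliver some precursors to the outer membrane. Neurons draw most of their ATP from oxidative phosphorylation, in which complexes I, III and IV pump protons and ATP synthase uses the gradient. Promoters of these genes are known for binding sites of NRF1, of the ETS factor GABPA (also called NRF2) and of YY1.

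Promoter windows from RefSeq (GRCm38.p6, 250 bases before to 50 after the start) were found for 38 of the 46 genes. They are shown for 4 genes counted in every animal, those with most counts among tested genes that hold one of the cores searched, to set the letters beside the expression values given further on. Capitals mark the ETS core (CCGGAAG, or CTTCCGG on the other strand) and the YY1 core (AAGATGGCG). The windows are those of Cox20 (chr1:178318903-178319202, plus strand), Atp5j (chr16:84834927-84835226, minus strand), Cox10 (chr11:64079423-64079722, minus strand) and Sdhaf1 (chr7:30322326-30322625, minus strand), each 5′ to 3′ in the direction of the gene.
Cox20: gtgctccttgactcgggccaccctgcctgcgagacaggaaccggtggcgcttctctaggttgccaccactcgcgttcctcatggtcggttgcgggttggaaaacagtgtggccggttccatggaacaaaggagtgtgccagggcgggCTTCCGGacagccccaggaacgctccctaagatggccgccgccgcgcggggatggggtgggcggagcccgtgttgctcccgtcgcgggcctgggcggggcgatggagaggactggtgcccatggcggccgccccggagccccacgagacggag
Atp5j: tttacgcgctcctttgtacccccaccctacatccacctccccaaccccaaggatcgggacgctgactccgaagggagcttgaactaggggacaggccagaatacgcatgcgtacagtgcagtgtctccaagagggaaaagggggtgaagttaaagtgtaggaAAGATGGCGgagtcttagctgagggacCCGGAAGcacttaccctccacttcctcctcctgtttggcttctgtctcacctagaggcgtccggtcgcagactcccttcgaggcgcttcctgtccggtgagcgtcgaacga
Cox10: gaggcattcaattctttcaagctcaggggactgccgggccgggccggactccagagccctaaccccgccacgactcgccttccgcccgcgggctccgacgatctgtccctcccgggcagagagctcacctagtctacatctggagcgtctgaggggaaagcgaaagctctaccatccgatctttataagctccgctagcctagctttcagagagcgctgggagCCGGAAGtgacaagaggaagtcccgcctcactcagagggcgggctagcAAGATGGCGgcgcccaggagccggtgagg
Sdhaf1: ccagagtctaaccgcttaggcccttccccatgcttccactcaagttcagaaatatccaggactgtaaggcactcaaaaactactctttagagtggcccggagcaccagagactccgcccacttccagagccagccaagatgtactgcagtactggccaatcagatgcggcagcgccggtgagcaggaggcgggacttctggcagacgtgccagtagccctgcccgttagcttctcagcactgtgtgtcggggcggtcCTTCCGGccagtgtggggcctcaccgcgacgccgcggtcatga
In Cox20 and Atp5j the ETS core lies before the start, and in Sdhaf1 it lies after it. The windows shown for Atp5j and Cox10 hold both cores. The table has another window for Atp5j (chr16:84835576-84835875), with a GC content of 77% and 0 matches. The Atp5j window shown shares 247 bases with that of Gabpa, which is transcribed in the other direction from the same stretch and encodes the ETS factor itself. In 12 of the 38 matched genes the window overlaps that of the gene whose ID counts them. Searched on both strands of all windows of a gene, the ETS core was in 28.9% of the 38 genes (11 genes), against 12.9% of the 17491 protein-coding genes in the table and 9.93% of all 27025 genes. The NRF1 core GCATGCGC was in 7.89% (3 genes), against 3.93% of protein-coding genes. Of the 15 tested genes with a window, 0 held it. For the YY1 core the shares were 13.2% (5 genes) and 2.14%. The ERRA site TCAAGGTCA was in 0 of the 38 and in 0.377% of protein-coding genes. Over all 182 family genes of the table the shares were 34.6% for ETS, 11.5% for NRF1, 9.89% for YY1 and 1.65% for ERRA. Taking for each gene its window with the highest GC content, the median was 60% over the 38 genes and 57.3% over protein-coding genes. These shares are matches of letters in a window and carry no test.

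Library totals ran from 667751 to 927242 counts, and 88.0% of counts could be assigned to an opposite-strand gene. Levels are given as CPM, counts relative to the TMM-scaled total at the genes tested, and a count of 3 stands for 3.66 to 4.97 CPM. Counts at the ID of Stip1, in order of animal number, were 0, 4, 0, 8 and 0 for wild type and 0, 8, 0, 5 and 0 for dTPR1. Since counts lie opposite to genes, these do not measure Stip1 transcripts, and the deletion could not be checked. Of the markers chosen for cortical excitatory neurons 3 of 12 were counted, Neurod1 and Tshz2 among them, with Slc17a7, Tbr1 and Camk2a among those not counted. The 3 summed to 2158 to 9114 CPM in wild type, highest in animal 1, and to 2554 to 5496 CPM in dTPR1. Of 6 blood genes 0 were counted. The 4 striatal neuron genes counted, out of 10 (Penk, Ppp1r1b, Rarb and Syndig1l), summed to 890 to 6361 CPM in wild type and 451 to 2604 CPM in dTPR1, highest in wild-type animals 2 and 3. Bcas1 and Gpr17, the 2 oligodendrocyte genes counted out of 12, summed to 1053 to 1895 CPM in wild type and 1636 to 2617 CPM in dTPR1. The counts at mt-Nd6 were 19.4% to 27.3% of a library, again highest in wild-type animals 2 and 3. The part of these differences in the values below was not tested. With wild-type animals 2 and 3 left out, 22 family genes were tested, 14 of them lower in dTPR1, with a median log2 fold change of -0.17. Tomm40l was at -0.34 (-0.37 with all animals), Cox20 at -0.20 (-0.41) and Uqcrc2 at -0.38 (-0.45). The sign changed for Mrps30 (0.0056), Mrps34 (-0.12), Mrps27 (-0.064), Atp5j (0.014) and Tomm6os (0.35). In a piece of tissue, fewer cells of a type and less RNA per cell cannot be told apart.

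The 46 genes held 20506 counts over the 10 libraries, 0.292% of all assigned counts. A few genes carried most of them. Tomm40l alone held 24.3%, and Tomm40l, Mrps30, Mrps34, Cox20 and Mrps25 together 63.5%. Of the 46, 17 were counted in all 10 libraries and 10 in 3 libraries or fewer. The filter on low counts passed 19 genes, which held 89.5% of the counts, and left 27 untested. By family, Mrpl had 51 annotated genes, 8 counted and 3 tested. Mrps had 32, 6 and 4, and Nduf 51, 13 and 4. Sdh had 8 annotated genes, 2 counted and 1 tested, and Uqcr 10, 1 and 1. Cox had 29, 5 and 3, Atp5 23, 3 and 1, and Tomm 11, 4 and 2, while of 16 Timm genes 4 were counted and 0 tested. So the values cover a small share of every family, chosen by which genes face a counted ID.

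**Figure D1:**
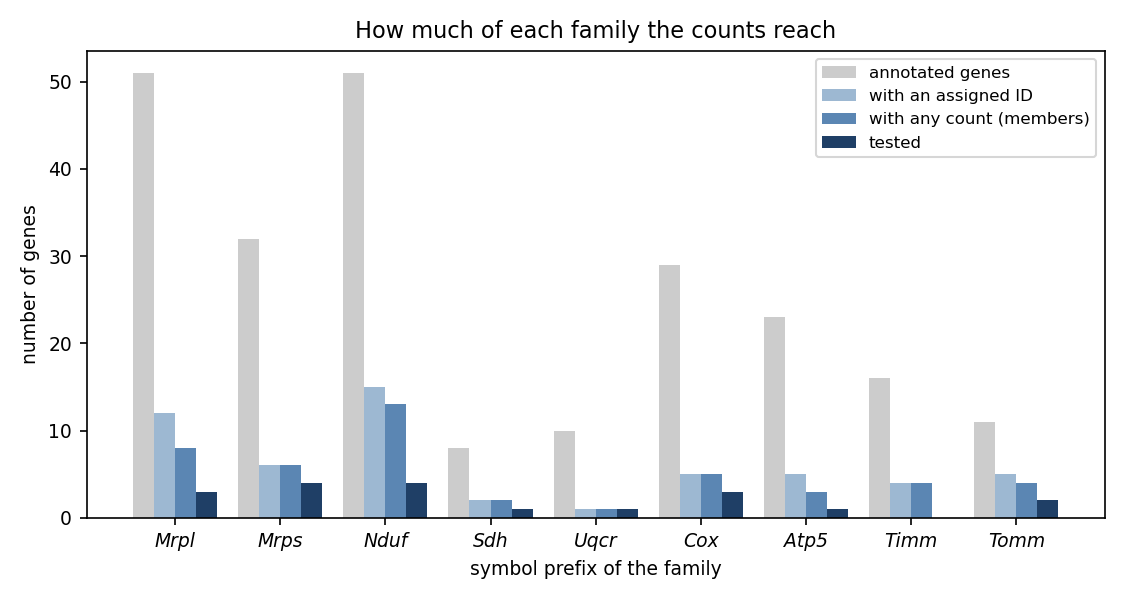
Number of genes (y axis) in each family (x axis, by symbol prefix). The 4 bars stand for annotated genes, genes with an assigned ID, genes with any count and genes tested; of 51 annotated Nduf genes 13 were counted and 4 tested.

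What is measured of each gene is the stretch that faces a counted ID, though all counts of the ID are used. The shared exon bases numbered 49 to 4590 in the 19 tested genes (median 623) and 2 to 4590 in all 46 (median 173). In 8 of the 19 the counting gene overlapped the 3′ end, in 4 the 5′ end, in 6 it lay within the gene and in 1 it spanned both ends. The shared bases held no coding base in 6 of the 19. Only 49 bases were shared in Cox10 and 67 in Ndufa9, the 2 tested genes with under 100. Counting IDs were those of protein-coding genes for 14 of the 19, among them Nr1i3 for Tomm40l, Hnrnpu for Cox20, Nr2c2 for Mrps25 and Gabpa for Atp5j. Since all counts of an ID are used, the share of its exon bases that faces the gene matters: 3304 of 4414 in Nr1i3 for Tomm40l, 623 of 1495 in B430218F22Rik for Mrps30, 804 of 11599 in Hnrnpu for Cox20 and 117 of 3714 in Rbm10 for Ndufb11. Levels are therefore compared between animals for 1 gene at a time, and not between genes. The counts at the genes' own IDs were 15342 over 230 IDs, with a median of 0, and 110 of these IDs had any count. The largest, 2313 at Mrpl48, 2232 at Mrps25 and 2225 at Tomm6os, face Rab6a, Nr2c2 and Prickle4 on the other strand.

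**Figure D2:**
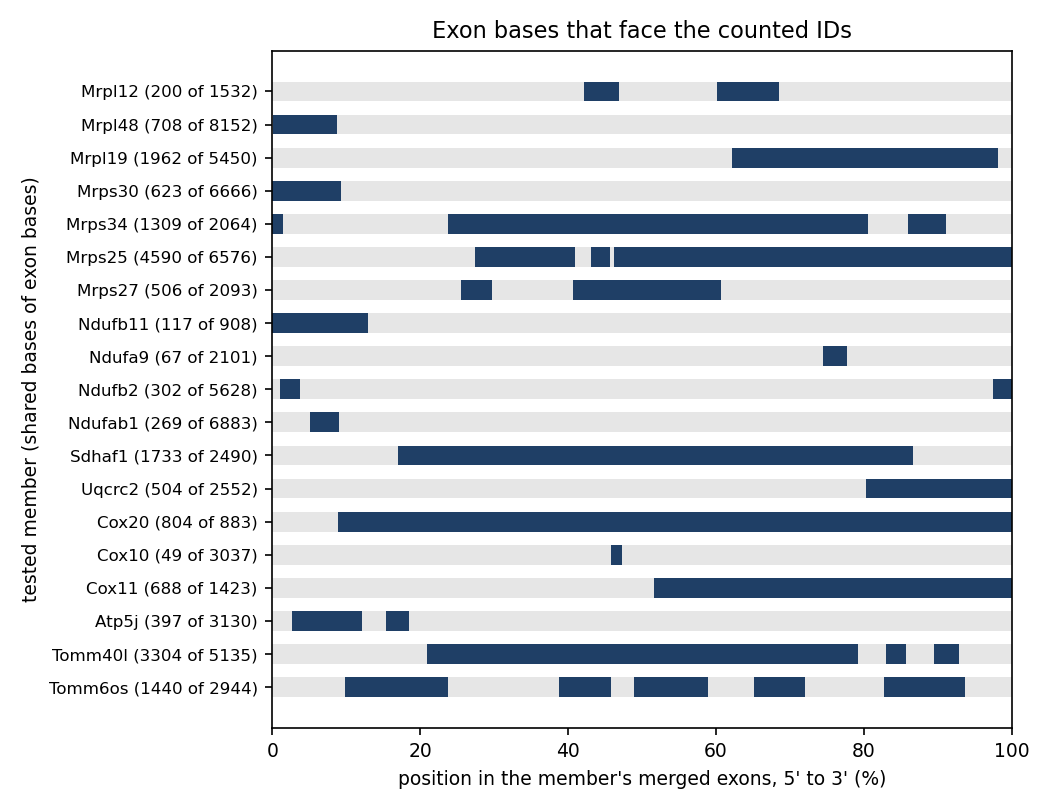
Position of the shared exon bases (dark) along the merged exons (light) of the 19 tested genes, as percent of exon length from 5′ to 3′. Cox20 shares 804 of 883 exon bases with its counting gene, and Cox10 shares 49 of 3037.

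The genotype comparison asked whether transcripts of these families differ between dTPR1 and wild-type cortex. None of the 19 genes passed the adjusted threshold of 0.05 in edgeR's quasi-likelihood test, which called 0 of all 2019 genes tested (0%). Lower estimates in dTPR1 were given for 14 of the 19 and higher ones for 5. This is 73.7% lower, beside 49.8% of all genes tested. The tally depends on the setting: lower estimates were given for 10 of 19 by limma-voom with quality weights, 12 of 20 without wild-type animal 4 and 27 of 46 with no filter on low counts. The median log2 fold change, dTPR1 over wild type, was -0.15 over the 19 and 0.00 over all 2019. An unadjusted p under 0.05 was reached by 1 of the 19, Tomm40l, beside 2.82% of all genes (57). Groups did not overlap for 0 of the 19, beside 0.347% of all genes. The adjusted p was 0.999 for each of the 19. Their standard errors ran from 0.16 to 1.07 on the log2 scale (median 0.37). The genes share libraries and scaling, so the 14 and 5 are not independent counts. Summed CPM of the 19 was 2424, 2658, 2949, 2896 and 3121 in wild-type animals 1 to 5 and 2146, 2714, 2620, 2464 and 2493 in dTPR1 animals 1 to 5. Leaving out Tomm40l, the sums were 1721, 1908, 2022, 2094 and 2249 in wild type and 1679, 2058, 1955, 1863 and 1754 in dTPR1. Both pairs of ranges overlap.

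**Figure D3:**
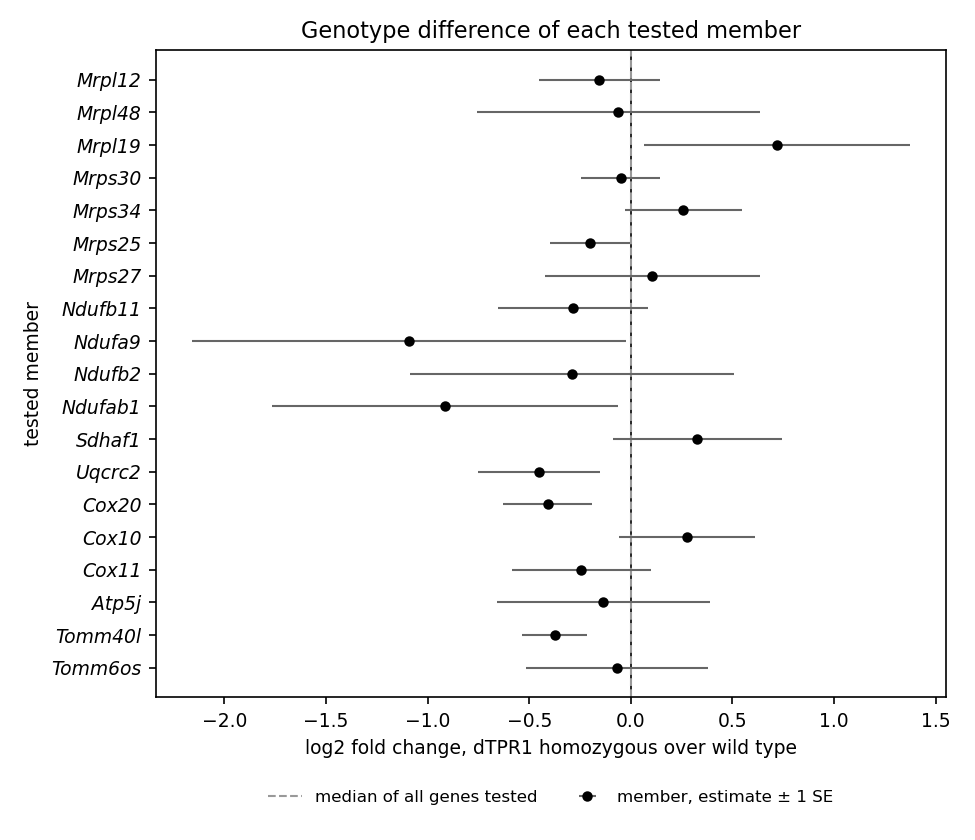
Log2 fold change, dTPR1 homozygous over wild type (x axis), of the 19 tested genes with 1 standard error to each side. The vertical line marks the median of all genes tested, and 14 of the 19 points lie on its left.

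In what follows, values per animal are CPM for animals 1 to 5 of each group, with group mean ± SD (n = 5) where given, and fold changes are log2 with SE from edgeR. In the outer membrane translocase, Tomm40l (ENSMUSG00000005674.9, chromosome 1, 171216011 to 171222514, minus strand) encodes a paralogue of the channel protein TOM40. It was at 703, 749, 926, 801 and 873 CPM in wild type and 466, 656, 665, 601 and 739 CPM in dTPR1. All 5 dTPR1 animals lay below the wild-type mean, and dTPR1 animal 5 lay above wild-type animal 1, so the groups overlap. The means were 811 ± 90.4 and 625 ± 102 CPM, a log2 fold change of -0.37 ± 0.16 (adjusted p = 0.999 in edgeR). Tomm6os (chromosome 17, 47687610 to 47691083) was at 63.9, 59.3, 105, 34.8 and 35.4 CPM in wild type and 93.8, 63.5, 69.1, 18.8 and 39.3 CPM in dTPR1. Its log2 fold change was -0.07 ± 0.45, and both groups spread widely around like means. Untested Tomm6, a small subunit of the translocase, was counted 22, 10, 13, 7 and 10 times in wild type and 13, 6, 2, 7 and 4 times in dTPR1. Tomm70a, a receptor that binds HSP70 and HSP90 through its own TPR domains, was counted 0, 0, 9, 0 and 17 times and 0, 0, 3, 4 and 0 times, over 41 shared bases. The 4 Timm genes were counted 0 to 17 times in a library. Timm10b, a small chaperone of the intermembrane space, was counted 13, 0, 17, 0 and 4 times in wild type and 0, 5, 2, 6 and 0 times in dTPR1. Timm13, another of these small chaperones, was counted 1, 6, 7, 0 and 0 times and 0, 7, 2, 8 and 1 times.

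Among mitochondrial ribosomal proteins of the small subunit, by symbol, Mrps30 (chromosome 13, 118378381 to 118387252) was at 253, 500.0, 388, 492 and 471 CPM in wild type and 387, 440.0, 393, 462 and 351 CPM in dTPR1. Wild-type animal 1 was the lowest of all, and the dTPR1 values lay inside the wild-type range (log2 fold change -0.05 ± 0.19). Mrps34 (chromosome 17, 24895116 to 24897502) was at 346, 129, 166, 313 and 383 CPM and at 191, 332, 441, 313 and 324 CPM. Its 2 lowest values were wild-type animals 2 and 3, and the log2 fold change was 0.26 ± 0.29. Mrps25 (chromosome 6, 92169525 to 92184033) was at 199.5, 229, 229.5, 323 and 233 CPM and at 249, 206, 201, 204 and 195 CPM. Wild-type animal 4 stood above the other four, as did dTPR1 animal 1 in its group (-0.20 ± 0.20, and -0.07 without wild-type animal 4). Mrps27 (chromosome 13, 99344786 to 99415562) was at 26.5, 21.6, 21.7, 48.0 and 17.1 CPM and at 32.7, 22.2, 26.3, 50.3 and 12.6 CPM (0.11 ± 0.53). Of the large subunit, Mrpl12 (chromosome 11, 120484613 to 120489065), which also binds the mitochondrial RNA polymerase, was at 76.4, 76.8, 89.6, 76.2 and 97.7 CPM and at 71.1, 105, 69.1, 72.9 and 56.6 CPM (-0.15 ± 0.30). In dTPR1, 4 of 5 animals lay below the wild-type mean and animal 2 above every wild-type animal. Mrpl19 (chromosome 6, 81957851 to 81965958) was at 14.0, 16.2, 13.6, 23.2 and 4.88 CPM and at 29.9, 23.8, 39.5, 12.6 and 12.6 CPM. Its mean was 14.4 ± 6.55 in wild type and 23.7 ± 11.6 in dTPR1 (0.72 ± 0.66), the highest estimate among the 19, and 0.46 without dTPR1 animal 3. Mrpl48 (chromosome 7, 100545751 to 100608301) was at 29.6, 36.4, 0, 41.4 and 45.2 CPM and at 27.0, 15.9, 26.3, 25.1 and 51.9 CPM (-0.06 ± 0.70). Untested Mrpl47 was counted 8, 0, 29, 25 and 16 times in wild type and 8, 11, 7, 9 and 3 times in dTPR1. Mrpl49 was counted 2 to 14 times in every library, and Mrps7 0 to 9 times.

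Mrps11, a small-subunit protein, is counted at the ID of Mrpl46, its head-to-head neighbour, and Mrpl46 at that of Mrps11, with 173 shared exon bases and 141 shared promoter bases. It was counted 0, 0, 0, 0 and 4 times in wild type and 13, 23, 3, 11 and 9 times in dTPR1. In CPM the lowest dTPR1 animal (4.94) lay just above the highest wild-type animal (4.88), while by raw count the groups overlap. It failed the filter on low counts, and 4 of 5 wild-type libraries were at 0, so no fold is given. Among all 46 genes it is the 1 whose CPM did not overlap between the groups, beside 0.367% of all 5176 genes with any count. Fitted with no filter on low counts, 4 of the 46 genes had an unadjusted p under 0.05 in edgeR (Mrps11, Cox15 and Timm9 among them, Timm9 named after its values were seen), beside 10.5% of all genes, and the lowest adjusted p among the 46 was 0.453.

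The 4 tested genes of complex I had lower estimates in dTPR1, beside 49.8% of all genes tested, with a median log2 fold change of -0.60, and none passed the test. Of these, Ndufb2 turned to 0.28 by limma-voom and to 0.12 with age in the model. Ndufb11 (chromosome X, 20615326 to 20617619), an accessory subunit of the membrane arm, was at 29.6, 57.9, 77.4, 74.5 and 67.1 CPM in wild type and 49.8, 69.9, 39.5, 51.5 and 40.9 CPM in dTPR1 (-0.29 ± 0.37). The lowest value of all was wild-type animal 1. Ndufa9 (chromosome 6, 126821721 to 126849136), an accessory subunit where the 2 arms meet, was at 65.5, 21.6, 13.6, 16.6 and 84.2 CPM and at 0, 65.1, 3.29, 0 and 26.7 CPM. The estimate of -1.09 ± 1.07 was -2.42 without dTPR1 animal 2 and -0.62 without wild-type animal 5, the highest of each group. Ndufab1 (chromosome 7, 122085403 to 122101886), the mitochondrial acyl carrier protein, was at 18.7, 18.9, 16.3, 6.62 and 29.3 CPM and at 0, 7.94, 21.4, 7.54 and 11.0 CPM (-0.91 ± 0.85). It was lower than the wild-type mean in 4 of 5 dTPR1 animals, and the estimate was -0.59 without dTPR1 animal 1 and -1.42 without dTPR1 animal 3. Ndufb2 (chromosome 6, 39592574 to 39603382) was at 51.4, 18.9, 38, 0 and 43.9 CPM and at 15.6, 3.18, 62.5, 20.1 and 23.6 CPM (-0.29 ± 0.80). Of its counts, 133 came from the ID of Braf (146 of 13862 exon bases shared) and 60 from Gm16272 (156 of 388). Both groups of each gene overlap. Untested Ndufb1-ps was counted 4, 18, 0, 5 and 3 times in wild type and 5, 16, 0, 4 and 1 times in dTPR1. The assembly factor gene Ndufaf3 was counted 22 times in dTPR1 animal 1 and 0 to 6 times elsewhere. It shares 48 exon bases with its counting gene Impdh2, which has 3077.

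Of complex II, Sdhaf1 (chromosome 7, 30321406 to 30323895), an assembly factor for its iron-sulfur subunit, was at 51.4, 66, 43.5, 67.9 and 20.8 CPM in wild type and 108, 34.9, 69.1, 51.5 and 48.7 CPM in dTPR1 (0.33 ± 0.42). The highest value was dTPR1 animal 1 and the lowest wild-type animal 5. Sdhaf4 was counted 3 times, in dTPR1 animal 5 alone. Of complex III, Uqcrc2 (chromosome 7, 120635176 to 120659524), a core protein of the complex, was at 115, 105, 190.2, 136 and 140.4 CPM and at 76.8, 122, 110.3, 139 and 51.9 CPM. The means were 137 ± 32.9 and 100.1 ± 35.4 CPM, with 4 of 5 dTPR1 animals below the wild-type mean (log2 fold change -0.45 ± 0.30, adjusted p = 0.999 in edgeR). Without dTPR1 animal 5 the estimate was -0.28.

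The 3 tested complex IV genes encode assembly factors rather than subunits. Cox20 (chromosome 1, 178319130 to 178322693), a chaperone of the subunit COX2, was at 245, 280.3, 348, 240.1 and 195 CPM in wild type and 169, 265, 201, 148 and 203 CPM in dTPR1. In dTPR1, 4 of 5 animals lay below the wild-type mean, and the groups overlap. Its means were 262 ± 56.8 and 197 ± 44.3 CPM (-0.41 ± 0.22, adjusted p = 0.999 in edgeR). Cox10 (chromosome 11, 63962627 to 64079468), an enzyme of haem A synthesis, was at 49.9, 47.2, 86.9, 48.0 and 87.9 CPM and at 99.5, 65.1, 57.6, 77.9 and 88.0 CPM (0.28 ± 0.34). Wild type had 3 low and 2 high values. All dTPR1 values lay above the 3 low ones, from 57.6 to 99.5 CPM, and the groups overlap. Cox11 (chromosome 11, 90638173 to 90644931), which carries copper to the subunit COX1, was at 46.8, 55.3, 65.2, 76.2 and 59.8 CPM and at 59.7, 49.2, 39.5, 41.5 and 66 CPM (-0.24 ± 0.34). Untested Cox4i1, a subunit of the complex, was counted 24 times in wild-type animal 5 and 0 times in the other four, and 9, 21, 0, 36 and 0 times in dTPR1. Cox15 was counted 8 and 6 times in dTPR1 animals 2 and 4 and 0 times elsewhere. It shares 5 exon bases with its counting gene Cutc, which has 1422.

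Of ATP synthase, Atp5j (chromosome 16, 84827866 to 84835625), coupling factor F6 of the peripheral stalk, was at 39.0, 168, 130.4, 77.8 and 232 CPM in wild type and 19.9, 167, 85.6, 167 and 152 CPM in dTPR1. Values ran from low to high within both groups (-0.13 ± 0.53). Atp5o, the stalk protein OSCP, failed the filter with 1224 counts in all, the most of any untested gene here. It was counted 3, 0, 219, 0 and 5 times in wild type and 0, 372, 359, 1 and 265 times in dTPR1. So 4 animals had 219 or more counts, 3 of them dTPR1, and the other 6 had 5 or fewer. Nearly all, 1216, came from the ID D430001F17Rik, which shares 346 of its 1871 exon bases with Atp5o, and 8 from Gm15976. Of 53090 IDs, 14428 had any count. D430001F17Rik was the 1 ID of these with every library at 100 counts or more or at 5 or fewer and at least 2 libraries on each side. This rule was chosen after its values were seen. With no filter the log2 fold change of Atp5o was 2.42 ± 1.93 (unadjusted p = 0.244 in edgeR). Atp5l, another subunit of the enzyme, was counted 13, 5, 7, 9 and 9 times in wild type and 0, 5, 6, 0 and 0 times in dTPR1.

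**Figure D4:**
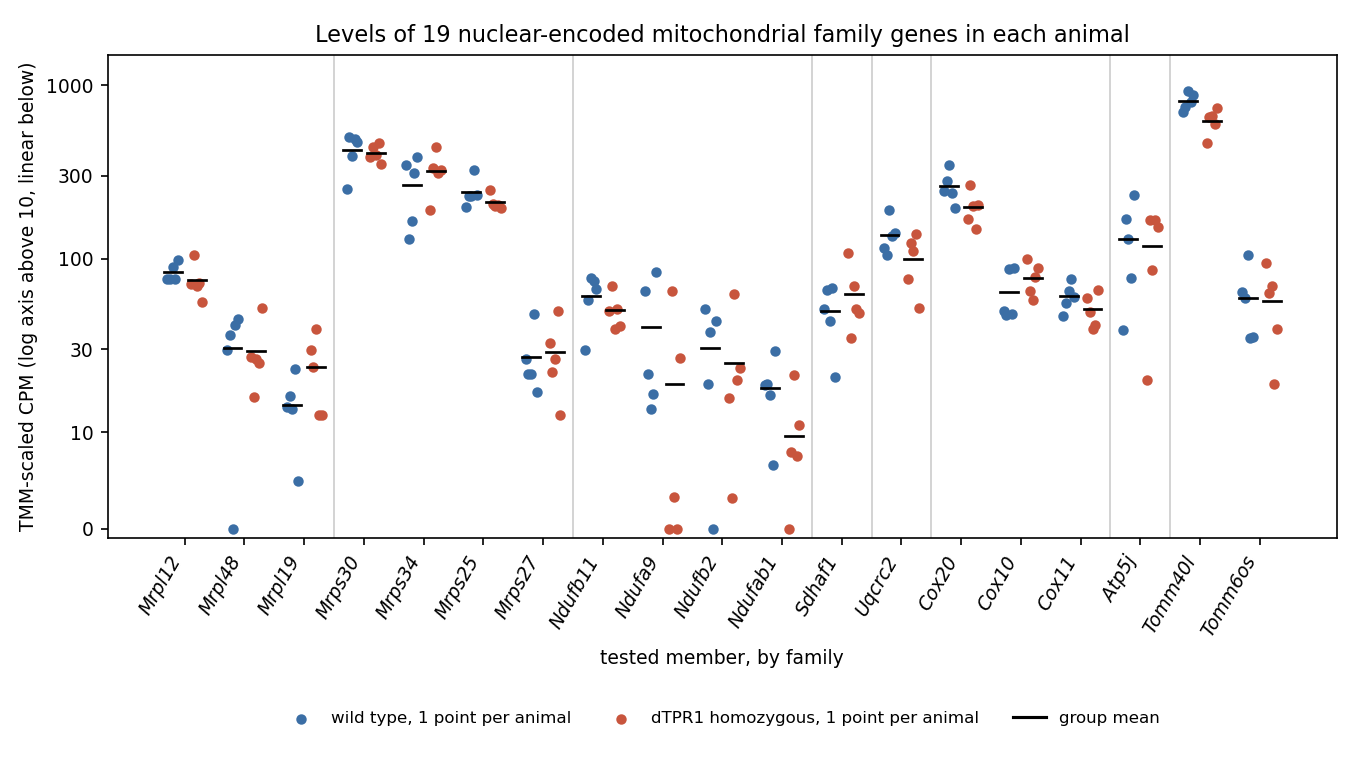
TMM-scaled CPM of the 19 tested genes in each animal (y axis, log above 10 and linear below), 1 point per animal with the group mean as a line. In each gene the ranges of the wild-type and dTPR1 points overlap.

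**Figure D5:**
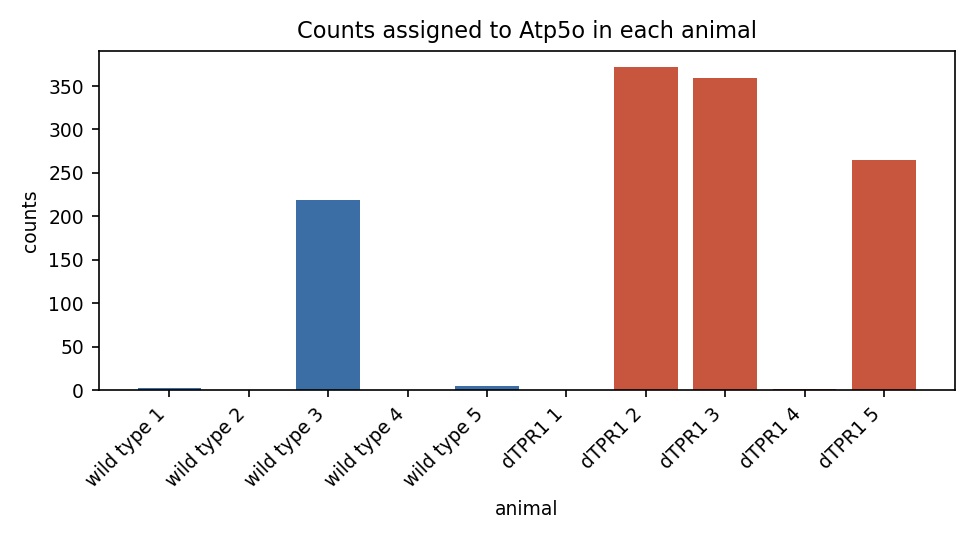
Counts assigned to Atp5o (y axis) in each of the 10 animals (x axis). Wild-type animal 3 and dTPR1 animals 2, 3 and 5 had 219 to 372 counts and the other 6 had 0 to 5.

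Other genes of mitochondrial function, in 6 lists of 179 genes, were read from the same fit. Of these, 46 were counted and 21 tested. Higher estimates in dTPR1 were given for 12 and lower for 9, beside 49.8% lower over all genes tested. An unadjusted p under 0.05 in edgeR was reached by 0, beside 2.82% of all genes tested. The median log2 fold change was 0.06, beside 0.00 over all genes tested. Of 4 tested genes of protein import, 2 were higher and 2 lower. Pmpca, a subunit of the peptidase that removes import signals, was at 723 ± 122 CPM in wild type and 682 ± 97.6 in dTPR1 (-0.08 ± 0.17), and Dnajc19, a co-chaperone of the import motor, had -0.90 ± 0.81. In mitochondrial translation, 3 of 4 were higher: Mtif3, an initiation factor, had 0.75 ± 0.45, and Gfm2, a ribosome recycling factor, had 0.18 ± 0.68. Gadd45gip1, a mitochondrial ribosomal protein and the list's most counted gene, had -0.01 ± 0.22. Among 5 assembly genes, 3 were higher. Sco2, a copper chaperone of complex IV, had 0.06 ± 0.22, Coa6 had -1.02 ± 0.75, and Taco1, an activator of COX1 translation, had -0.54 ± 0.93. Of pyruvate and citrate cycle genes 3 of 4 were higher, with Mpc1, a subunit of the pyruvate carrier, at 0.97 ± 0.71. Mpc1 was counted 96 times in dTPR1 animal 1 and 7 to 25 times in the other libraries, and without that animal its estimate was -0.36. The DNA polymerase gene Polg had 0.02 ± 0.26 and the transcription factor gene Mterf2 had -0.12 ± 0.73. Of carriers and dynamics, Phb2, a prohibitin, had -0.14 ± 0.41 and Immt, a cristae organiser, had -0.02 ± 0.55. The transcript of the mitochondrial gene mt-Nd5, read at mt-Nd6, had -0.13 ± 0.14.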

How the data were processed

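RNA from cortex of 5 wild-type and 5 dTPR1 homozygous mice was sequenced; per the labels, TRIzol was used for extraction and the SENSE Total RNA-Seq kit for libraries read from a single end. The deposited values are raw counts per Ensembl gene ID, made by the authors with TopHat and HTSeq on GRCm38.p5, per the submitters' processing notes; versions and strand setting are not given in the sources used here. No row lacked a gene name (0 rows). Symbols and positions came from GENCODE M21 on GRCm38, which held 52403 of 53090 IDs.

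Counts lie opposite to genes: 94.2% were at IDs facing an exon on the other strand, an inference from positions, not reads. By the 90% rule, 8188 IDs were assigned to 7385 genes and their counts summed. Counts in bases outside the shared stretch are included. Genotype was tested with edgeR 4.0.16 in R 4.3.3: TMM, filterByExpr on group, robust quasi-likelihood fit, no covariates, Benjamini-Hochberg adjustment over all genes tested, threshold 0.05. The SE is the log2 fold change divided by the root of F. The fit was tested on simulated data, drawn with the means and dispersions estimated here. How well its model suits these libraries was not tested by that. No molecular identifiers are named, so reads may repeat a molecule, and floors of 3 counts cover counting error only.

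The genes and lists were chosen with earlier results of these data known. Named were Stip1, every tested family gene, up to 2 untested genes per family with most counts, and per list the 2 smallest p and the most counted gene. A few genes so selected are not reported here; fits, counts and medians include them, the sign changes in the closing section do not. Alternatives were DESeq2 1.42.0 size factors and test, upper-quartile factors, other filters, limma 3.58.1 (voom), age or animal number in the model, other assignments, mitochondrial genes left out, and libraries left out.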

Additional observations from a re-analysis of the deposited data

Results flagged for a closer look

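Mrps25 had 1 animal apart from the rest in each group, by Dixon's test at its 95% critical value of 0.71 for 5 samples. Wild-type animal 4 was highest at 322.8 CPM, with the next at 233.2 CPM. In dTPR1 animal 1 it was 248.8 CPM, with the next at 206.5 CPM. Over 44 groups examined, 2 such values were found where chance gives about 2.2.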

How the results depend on the processing

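Family genes called numbered 0 under all 24 alternatives, as did all genes called except with no filter on low counts, where 2 of 5176 were called. Unadjusted p under 0.05 was reached by 45 to 542 of all genes and 0 to 4 of the family genes. The median log2 fold change of the tested family genes stayed below 0 under all 24 (-0.22 to -0.09, and -0.22 to -0.10 with 1 library left out). Of the 19 genes, 12 kept their sign throughout; the lowest adjusted p of any was 0.453. With 1 library left out, 17 of the 19 moved by over 1.5 times or changed sign; the exceptions were Tomm40l (-0.43 to -0.28) and Cox20 (-0.53 to -0.29). Of 762 log2 fold changes of 32 genes, 64 changed sign, and the cause was not tested. With 1 library left out, ranges across 0 were Mrpl48 -0.39 to 0.13, Mrps30 -0.18 to 0.02, Mrps27 -0.19 to 0.42, Atp5j -0.35 to 0.19, Tomm6os -0.32 to 0.23, Gfm2 -0.11 to 0.46, Gadd45gip1 -0.17 to 0.13, Sco2 -0.061 to 0.24, Mpc1 -0.36 to 1.22, Mterf2 -0.49 to 0.14, Polg -0.080 to 0.15, Phb2 -0.38 to 0.017 and Immt -0.32 to 0.65. With wild-type animals 2 and 3 left out, Mrps30 was 0.0056, Mrps34 -0.12, Mrps27 -0.064, Atp5j 0.014, Tomm6os 0.35, Gfm2 -0.32, Gadd45gip1 0.17, Sco2 -0.13, Polg -0.073, Phb2 0.31 and Immt 0.30. By limma-voom, Mrpl48 was 0.56, Mrps30 0.034, Ndufb2 0.28, Atp5j 0.043, Phb2 0.023 and Immt 0.41. With age in the model, Ndufb2 was 0.12 and Phb2 0.027. Gadd45gip1 was 0.023 with no filter, 0.0053 with a filter of 1 CPM in 5 libraries, 0.0030 without the mitochondrial genome and 0.018 by gene IDs as deposited, where Tomm6os was 0.042. With the animal number as a replicate block, 0 genes were called (50 with unadjusted p under 0.05), and Mrpl48 was 0.19, Polg -0.0049 and Immt 0.39. Same-numbered animals did not deviate together (r from -0.11 to 0.097), and 2 of 5 numbers matched best with themselves. Counts under 100 in most libraries limit most of the 19 genes.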
